A study of Mus musculus with 6 samples.

Results

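MHC class II antigen presentation was followed through 7 of the 32285 genes of the count matrices: the invariant chain gene Cd74, the chain genes H2-Aa, H2-Ab1 and H2-Eb1, the peptide loading genes H2-DMa and H2-DMb1, and the transactivator gene Ciita. They were taken by symbol, and no measured value entered the rule, but the pathway was chosen with earlier results of these data known. The data were 10x Genomics 3' single-cell RNA sequencing profiles of bone marrow cells from C57Bl/6 mice aged 2 months, with 3 femur and 3 mandible samples. Cells had been selected with magnetic beads for CD11b, an integrin subunit of neutrophils, monocytes and macrophages, so class II cells that lack CD11b were not the target of the selection. The labels name no treatment and no transgene in either group. Femur replicate 1 was female, and the other 5 samples were male. For the femur group the labels name femurs and tibiae while the study's methods name femurs alone, and for the mandible group the molars had been extracted and the sockets flushed with the marrow space. How many mice made up a sample is not stated, so the p-values measure the spread between these samples, which may in part be technical.

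MHC class II molecules are pairs of an alpha and a beta chain that carry peptides from endocytosed proteins to the cell surface for CD4+ T cells. The invariant chain fills the groove of new pairs and guides them to endosomes, where proteases degrade it and H2-DM exchanges its last fragment for peptide. Dendritic cells, B cells and some macrophages and monocytes make class II constitutively or after interferon gamma, under the control of CIITA, which does not bind DNA itself but docks on a complex of factors at class II promoters. Neutrophils at rest make little or none.

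On mm10 (GENCODE vM21, which held 99.6% of the gene identifiers), H2-DMa (chromosome 17, 34119541 to 34139101), H2-DMb1 (chromosome 17, 34153072 to 34160230), H2-Ab1 (chromosome 17, 34257689 to 34269419), H2-Aa (chromosome 17, 34282744 to 34287823) and H2-Eb1 (chromosome 17, 34305867 to 34316674) lay in the MHC region, and Ciita lay on chromosome 16, 10480059 to 10528418. H2-Aa is on the minus strand and the others named here are on the plus strand. H2-DMa overlaps Brd2 on the opposite strand and a further gene model on its own, and H2-DMb1 has the near copy H2-DMb2, so reads of these 2 genes may have been split or merged in counting.

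Promoter windows of RefSeq (GRCm38.p6, 250 bases before to 50 after the start) were found for H2-Aa, H2-Eb1, H2-DMa and H2-DMb1. The 2 stretches below lie just upstream of the start of the chain genes and are shown because they hold the 2 short boxes through which class II promoters are read. The capitals mark the X box core, searched as CNNGNAAC, and the Y box, searched as GATTGG.
H2-Aa, chr17:34287859-34287911, minus strand: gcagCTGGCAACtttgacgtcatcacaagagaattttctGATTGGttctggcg
H2-Eb1, chr17:34305769-34305820, plus strand: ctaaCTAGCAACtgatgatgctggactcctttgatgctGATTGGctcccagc
The letters were chosen after these promoters had been read. 27 bases lay between the boxes in H2-Aa and 26 in H2-Eb1, with the X core starting 84 and 94 bases before the gene. H2-DMb1 held the same pair with a gap of 27 bases, but its stretch lies in an annotated exon and is not shown. Of 32851 promoter windows, 39.1% held the X core, 16.1% the Y box and 0.411% the pair with 10 to 40 bases between them, on either strand. On the strand of the gene 0.231% held the pair, and the genes named here were searched on that strand only. Neither window of H2-DMa held the pair. Among the related genes outside the 7, H2-Oa, H2-Ob and H2-Eb2 held it and H2-DMb2 did not. A match is a description of the letters and not of a bound site.

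The samples held 7763 to 22797 kept cells and 82962160 to 244946998 UMIs (unique molecular identifiers, 1 per captured transcript), with medians of 6924 to 9158 UMIs per cell. Any 2 libraries shared 15 to 70 cell barcodes. The authors' clusters were used by number. Cluster 5 carried the monocyte markers Ly6c2, Ccr2, Csf1r, Ms4a6c, F13a1 and Fn1 at a summed 3158 to 5484 CPM (UMIs per 1000000 UMIs of the summed cells), and cluster 6 carried 6 B lineage markers at 6722 to 12706 CPM. Cluster 5 also held neutrophil transcripts, with 6 neutrophil markers at 38340.4 to 106433 CPM.

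Class II transcripts lay almost entirely in clusters 5 and 6. Cluster 5 held 10.5% of the cells but 87.3% of the Cd74 UMIs, and 91.9 to 92.6% of the UMIs of the 3 chain genes. Cluster 6 held 1.45% of the cells, 9.24% of the Cd74 UMIs and 4.34 to 4.67% of the chain UMIs. Over the 6 samples Cd74 averaged 1677 ± 644 CPM (SD, n = 6) in cluster 5 and 2637 ± 902 CPM in cluster 6, and the ranges of these clusters overlapped. Clusters 0 to 4 carried the 6 neutrophil markers at 77549 to 255440 CPM, and in them Cd74 lay between 2.55 and 20.1 CPM in every sample. Ciita was at most 0.455 CPM there, against 13.96 to 49.8 CPM in cluster 5.

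**Figure D1:**
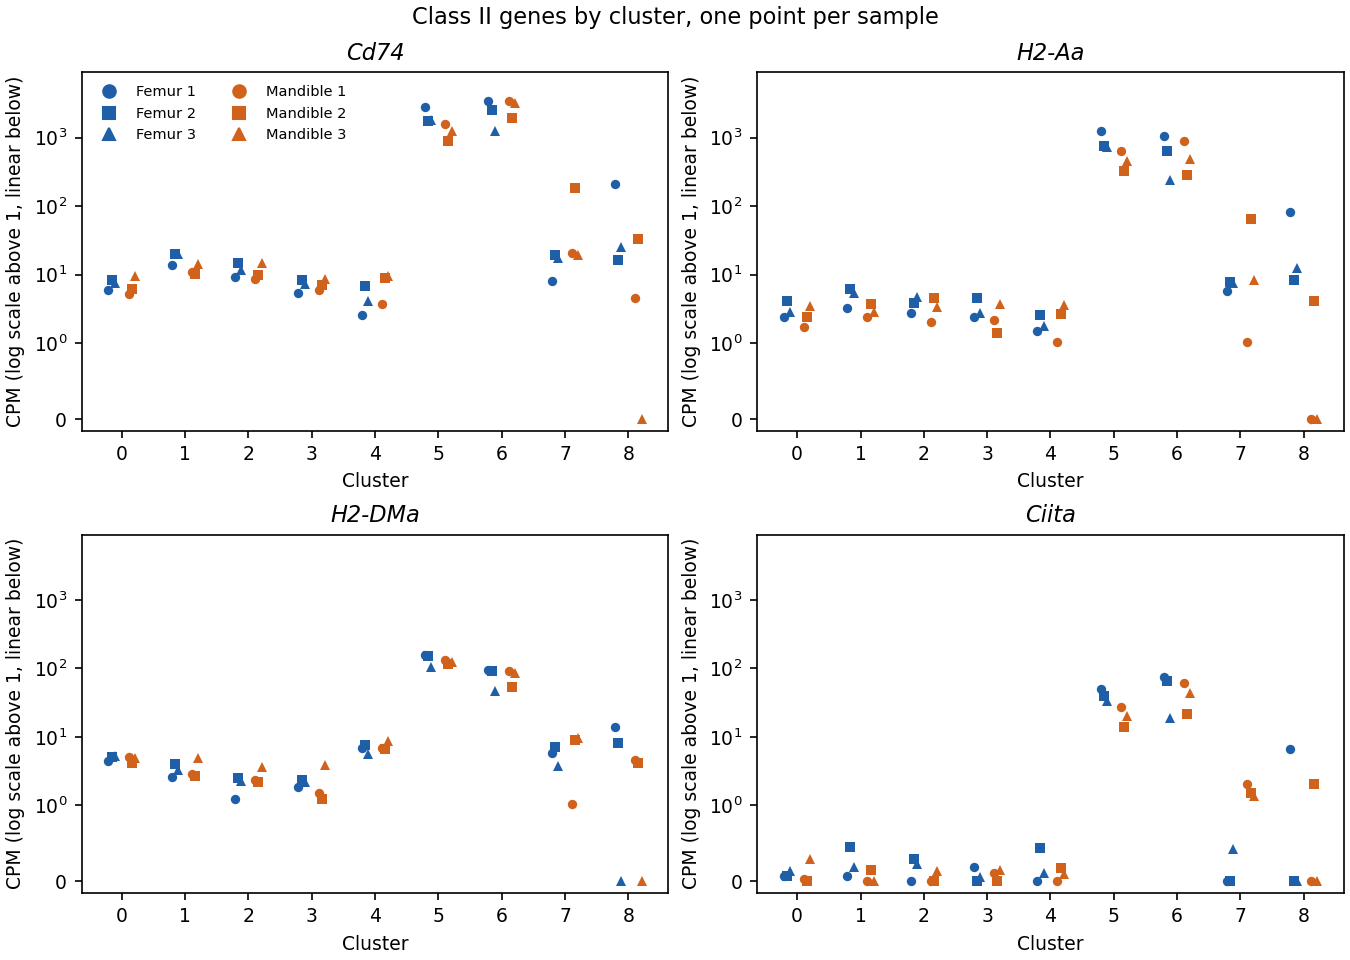
Level of Cd74, H2-Aa, H2-DMa and Ciita in CPM (vertical axis, logarithmic above 1 and linear below) in the summed cells of each cluster (horizontal axis), with 1 point per sample, femur in blue and mandible in orange. Clusters 5 and 6 stand above the others in all 4 genes, and H2-DMa is higher in clusters 0 and 4 than in clusters 2 and 3 in every sample.

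Shares of cells with a UMI followed the same order. After each cell was thinned to 1000 UMIs, Cd74 was seen in 24.2% ± 6.17 (SD, n = 6) of cluster 5 cells, in 55.1% ± 12.2 of cluster 6 cells and in 1.26% ± 0.361 of cells of clusters 1 to 3. Unthinned, the shares were 48.6%, 67.1% and 5.92%, at median depths of 10085, 4285 and 5526 UMIs per cell. The share in clusters 1 to 3, where no chain gene of the pooled clusters passed 5.18 CPM in any sample, serves as the level to read the others against. How much of it was free RNA in the droplets was not tested.

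H2-DMa, which encodes the alpha chain of the peptide exchange factor, did not keep to that pattern. It measured 5.70 to 8.78 CPM in cluster 4 and 4.16 to 5.17 CPM in cluster 0, against 2.02 to 4.12 CPM in clusters 1 to 3 together. The ratio of H2-DMa to Cd74 UMIs had a median of 1.25 (range 0.755 to 2.72) in cluster 4 and 0.683 (0.513 to 0.987) in cluster 0, but 0.213 (0.192 to 0.326) in clusters 1 to 3 and 0.0841 (0.0570 to 0.131) in cluster 5. All 6 samples of clusters 0 and 4 thus lay above all 6 of clusters 1 to 3 in this ratio. Cells of cluster 5 with the ImmGen label Stem cells (100 cells, with 5 to 44 per sample) held H2-DMa at 45.2 to 107 CPM with Cd74 at 6.48 to 58.2 CPM. Values from so few cells are rough. H2-DMb1 was also raised in clusters 0 and 4, at 1.26 to 2.29 and 1.75 to 4.61 CPM against 0.347 to 0.749 CPM in clusters 1 to 3. These comparisons between clusters are descriptions, since clusters were made from the same counts.

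A single sample stood apart in each of the 2 smallest clusters. In cluster 7, Cd74 was 8.17, 19.1 and 17.7 CPM in femur replicates 1 to 3 and 20.6, 184 and 19.3 CPM in mandible replicates 1 to 3. In cluster 8 femur replicate 1 stood at 211 CPM, and no other sample passed 33.00 CPM. Mandible replicate 2 and femur replicate 1 were the high samples, in clusters of 890 and 274 cells in all. Cluster 8 held 160, 15 and 11 cells in femur replicates 1 to 3 and 13, 60 and 15 in mandible replicates 1 to 3. Most of its samples thus rest on few cells, and its high sample had the most.

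Within cluster 5 the levels differed widely between the cells that the ImmGen reference had labelled. Cells labelled DC, for dendritic cells, were 174 of the 7354 cells and held 15.9% of all Cd74 UMIs of the data set. Cd74 averaged 16746 ± 4567 CPM (SD, n = 6) in them, 5019.9 ± 1410.3 CPM in cells labelled Macrophages, 1860.2 ± 865 CPM in cells labelled Monocytes and 722 ± 197 CPM in cells labelled Neutrophils. The lowest DC sample, at 10751 CPM, lay above the highest Macrophages sample, at 7488 CPM, and the lowest Macrophages sample, at 3284 CPM, lay above the highest Monocytes sample, at 2939 CPM. The Monocytes and Neutrophils labels overlapped. H2-Aa kept that order, at 7607 ± 2269, 2320.3 ± 769, 719.8 ± 383 and 280.4 ± 86.2 CPM, and so did Ciita, at 273 ± 88.04, 81.99 ± 18.5, 34.7 ± 16.96 and 15.04 ± 5.92 CPM. H2-DMa spanned much less, from 60.4 ± 9.40 to 591 ± 80.1 CPM, and its Macrophages and Monocytes samples overlapped, at 159 to 274 and 157 to 211 CPM.

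The ranges of the chain genes' proportions overlapped between clusters 5 and 6, and that of Cd74 did not. H2-Ab1 UMIs were 0.808 to 0.958 times those of H2-Aa in cluster 5 and 0.760 to 1.13 times in cluster 6. H2-Eb1 UMIs were 0.701 to 0.880 times those of H2-Aa in cluster 5 and 0.686 to 0.849 times in cluster 6. Under the Monocytes label that ratio was 0.871, 0.810 and 0.811 in the femur samples and 0.758, 0.629 and 0.666 in the mandible samples, without overlap. Of the 7 ratios computed under that label, 5 did not overlap between the sites. The 7 ratios share genes, so they are not separate results, and no share over other pairs of genes was computed. Cd74 over H2-Aa was 2.36, 2.41 and 2.65 in the femur samples and 2.78, 2.95 and 2.95 in the mandible samples, and H2-DMa over Cd74 was 0.0670 to 0.0997 and 0.117 to 0.207, both higher in the mandible. H2-DMa over H2-Aa was also higher there, while H2-Ab1 over H2-Aa and Ciita over Cd74 overlapped. Each ratio rests on sums over the label, where a change within cells and a changed mix of cells cannot be told apart. H2-DMb1 over H2-DMa was lower in the mandible, but barely, with 0.516 in femur replicate 2 against 0.515 in mandible replicate 3. Cd74 UMIs were 2.20 to 2.75 times those of H2-Aa in cluster 5 and 3.24 to 6.83 times in cluster 6, so every sample had a higher ratio in the B lineage cluster. These are ratios of counted transcript ends, compared between cells and not between genes.

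Between the sites, all 7 genes had lower fitted levels in the mandible in cluster 5, and 5 of them did not overlap. Cd74 was 2778, 1765 and 1827 CPM in femur replicates 1 to 3 and 1563, 878 and 1252 CPM in mandible replicates 1 to 3. H2-Aa was 1265, 761 and 723 CPM in femur replicates 1 to 3 and 628, 329 and 455 CPM in mandible replicates 1 to 3. Ciita was 49.8, 39.5 and 33.5 CPM in femur replicates 1 to 3 and 27.3, 13.96 and 20.4 CPM in mandible replicates 1 to 3. Every femur sample was above every mandible sample in these 3 genes and in H2-Ab1 and H2-Eb1, while H2-DMa and H2-DMb1 overlapped. The share of all genes tested that did not overlap and were lower in the mandible was 4.29%. The log2 fold changes (mandible over femur, edgeR quasi-likelihood test) were -0.82 for Cd74, -0.98, -1.10 and -1.13 for H2-Aa, H2-Ab1 and H2-Eb1, -1.03 for Ciita, -0.36 for H2-DMb1 and -0.18 for H2-DMa. Their median was -0.98, against -0.01 over all genes. None of the 7 passed the test after Benjamini-Hochberg adjustment over 13765 genes (edgeR adjusted p from 0.594 to 0.773), and 0% of genes were called. At an unadjusted p under 0.05, 6 of the 7 and 979 genes in all passed, 3.86% of genes in the direction lower in the mandible. DESeq2 called 4 of them lower in the mandible, H2-Aa, H2-Ab1, H2-Eb1 and Ciita, and 0.519% of all genes. In sums over cells, fewer class II cells and less class II RNA per cell cannot be told apart.

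Among the 4 labels tested, the log2 fold changes of all but H2-DMa were farthest below 0 in the cells of cluster 5 labelled Monocytes (488, 772 and 614 cells in the femur samples and 610, 665 and 585 in the mandible samples). Ciita, the transactivator of the class II genes, was 51.8, 42.7 and 54.1 CPM in femur replicates 1 to 3 and 24.9, 15.1 and 19.7 CPM in mandible replicates 1 to 3. It was lower in the mandible, with a log2 fold change of -1.34 ± 0.19 (SE), adjusted p = 0.0451 (edgeR), which is 2.53-fold lower. It was the only one of the 7 genes that passed, where 0.0968% of 11364 genes were called and 0.088% were called lower in the mandible.

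The other 6 genes lay lower in every mandible sample than in any femur sample, as did 7.18% of all genes tested, but missed the threshold. Cd74 was 2939, 1985 and 2774 CPM in femur replicates 1 to 3 and 1352, 761 and 1349 CPM in mandible replicates 1 to 3, with a log2 fold change of -1.18 ± 0.23 (SE), adjusted p = 0.0983 (edgeR). H2-Aa was 1248, 824 and 1046 CPM in femur replicates 1 to 3 and 486, 258 and 458 CPM in mandible replicates 1 to 3, with a log2 fold change of -1.40 ± 0.24 (SE), adjusted p = 0.0832 (edgeR). In both, mandible replicate 2 was the lowest sample and femur replicate 1 the highest. H2-Ab1 and H2-Eb1, which encode the beta chains, had log2 fold changes of -1.57 ± 0.23 (SE), adjusted p = 0.0613 and -1.66 ± 0.28 (SE), adjusted p = 0.0832 (edgeR). H2-DMb1 and H2-DMa had smaller differences, of -0.50 ± 0.14 (SE), adjusted p = 0.161 and -0.28 ± 0.11 (SE), adjusted p = 0.323 (edgeR). The median of the 7 was -1.34, against 0.00 over all genes. Over 14 alternative settings, Ciita passed in 8, H2-Ab1 in 7, H2-Aa and H2-Eb1 in 6 each, Cd74 in 5, H2-DMb1 in 1 and H2-DMa in 0. The settings that added calls also called more of all genes, with 3.23% without the filter on low counts, 4.98% without mandible replicate 1, 0.73% with the title numbers as a replicate block and 7.08% with the library numbers as one. DESeq2, one of these settings, called 5 of the 7, all but H2-DMa and H2-DMb1, and 2.97% of all genes.

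**Figure D2:**
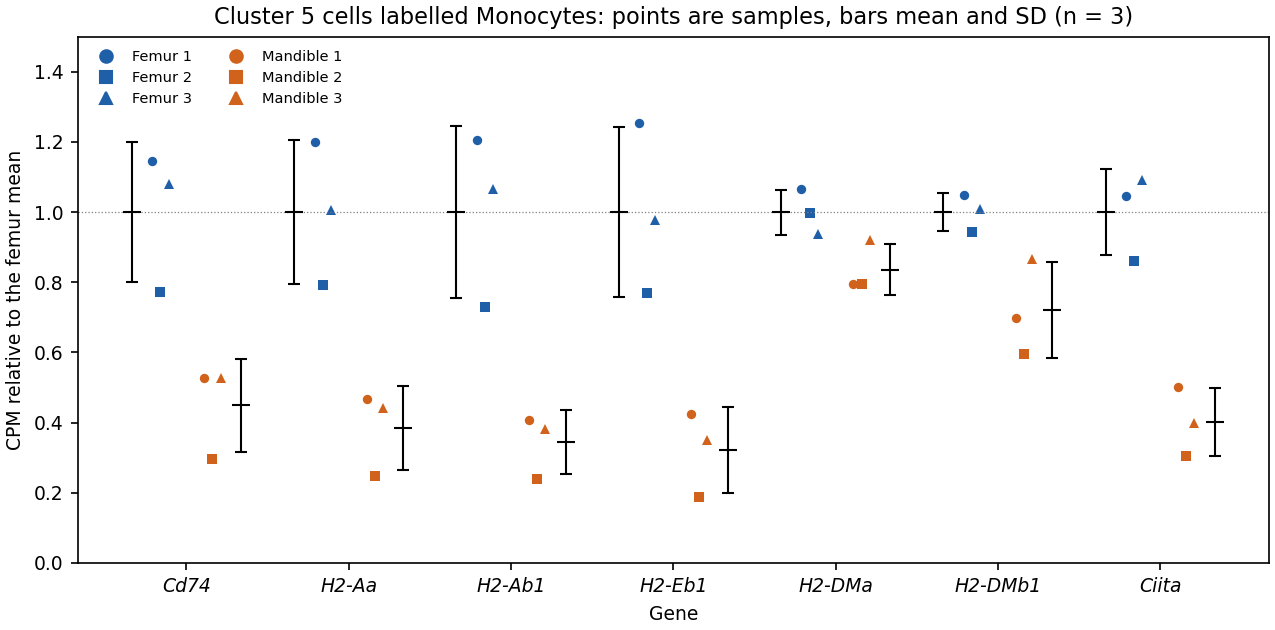
Level of each gene in cluster 5 cells labelled Monocytes, as CPM divided by the femur mean of that gene (vertical axis, from 0), with 1 point per sample and black bars for the mean and SD of each site (n = 3). The femur and mandible points do not overlap in any of the 7 genes, and the gap is narrowest in H2-DMa and H2-DMb1.

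The Ciita call was lost when any 1 of 5 libraries was left out. Its adjusted p (edgeR) was 0.329 without femur replicate 1, where only males are compared and the log2 fold change was -1.33, 0.0818 and 0.0563 without femur replicates 2 and 3, 0.133 and 0.216 without mandible replicates 2 and 3, and 0.00474 without mandible replicate 1. The log2 fold change stayed between -1.53 and -1.19. Within library number 6, carried by femur replicate 2 and mandible replicate 1, the log2 ratio of CPM was -0.78 for Ciita and -0.76 for H2-Aa. Within library number 7, carried by femur replicate 3 and mandible replicate 2, these were -1.84 and -2.02.

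Cell cycle phase differed between samples of these cells. Cells called G2M were 5.12, 4.66 and 11.1% of the femur samples and 9.02, 26.9 and 16.9% of the mandible samples, and the sites overlapped (exact permutation test, 2-sided, p = 0.2). Cd74 in G2M cells was 19.3 to 576 CPM, far below the 1319.8 to 3372 CPM of G1 cells. In G1 cells alone the log2 fold change of Ciita was -1.03 (edgeR adjusted p = 0.0306), and H2-Aa, H2-Ab1 and H2-Eb1 passed as well, at -1.13, -1.29 and -1.42, where 0.169% of genes were called. This restriction was chosen after the data had been seen.

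Under the Monocytes label the summed markers of macrophages, plasmacytoid DC, migratory DC and classical monocytes did not overlap between the sites. Those of conventional DC, nonclassical monocytes, neutrophils and B lineage cells did. All 6 conventional DC genes tested had log2 fold changes below 0, with a median of -0.55. Of these, 3 were lower in the mandible without overlap, against 7.18% of all genes. The 6 nonclassical monocyte markers summed to 476 to 708 CPM in the femur and 298 to 653 CPM in the mandible. All 6 lay below 0, with a median of -0.72, and 1 was lower without overlap. The 6 classical monocyte markers were higher in the mandible, at 7884 to 8016 CPM against 6206 to 7216 CPM in the femur. The 4 migratory DC markers were 2.44 to 3.45 CPM in the femur and 0.806 to 1.45 CPM in the mandible. Only 2 plasmacytoid DC markers and 1 migratory DC marker passed the filter on low counts. The summed 6 macrophage markers (C1qa, C1qb, C1qc, Adgre1, Vcam1 and Mrc1) were 395 to 511 CPM in the femur and 134 to 292 CPM in the mandible, and 1 of the 6, C1qc, passed as lower. The 8 conventional DC markers were 105 to 173 CPM in the femur and 63.98 to 127 CPM in the mandible, the 6 plasmacytoid DC markers 309 to 323 CPM in the femur and 244 to 281 CPM in the mandible, and the 6 neutrophil markers 4439 to 19468 CPM in the femur and 6291 to 9923 CPM in the mandible. The 6 B lineage markers were 12.8 to 24.3 CPM in the femur and 17.1 to 46.9 CPM in the mandible. No marker of the macrophage, conventional DC, neutrophil or B lineage lists was at 0 in all samples, and Klk1 of the plasmacytoid DC list was. Their part in the class II difference was not tested.

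Most cells labelled Monocytes showed no chain transcript at a fixed depth, and the share that did was lower in every mandible sample than in any femur sample. After thinning to 1000 UMIs, 77.00, 84.3 and 80.3% of the cells of the femur samples and 89.8, 91.7 and 90.6% of those of the mandible samples had no UMI of H2-Aa, H2-Ab1 or H2-Eb1. Cells with 5 or more such UMIs, called class II-high here, were 15.6, 9.46 and 13.5% and 6.56, 4.52 and 5.81%, so the sites did not overlap. The means were 12.9 ± 3.13% in the femur and 5.63 ± 1.03% in the mandible (SD, n = 3; exact permutation test, 2-sided, p = 0.1, the smallest that 3 against 3 samples allow). The denominator also differed without overlap, since cells labelled Monocytes in cluster 5 were 4.76, 6.65 and 2.69% of all kept cells of the femur samples and 7.09, 7.60 and 7.54% of those of the mandible samples. As a share of all kept cells, the class II-high ones were 0.741, 0.629 and 0.364% in the femur samples and 0.465, 0.343 and 0.438% in the mandible samples, and the sites overlapped (exact permutation test, 2-sided, p = 0.3). The class II-high cells numbered 76, 73 and 83 in femur replicates 1 to 3 and 40, 30 and 34 in mandible replicates 1 to 3. Near the limit, on either side of it with 3 to 7 chain UMIs, lay 14, 26 and 18 femur and 17, 10 and 13 mandible cells. In clusters 1 to 3, at most 1 cell per sample was class II-high, of 3380 to 11063 cells.

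The class II-high cells held 90.9 to 97.6% of the chain UMIs of their sample. Their own chain level was 22473, 21471 and 20637 CPM in the femur samples and 19161, 13418 and 18896 CPM in the mandible samples, a ratio of means of 1.25, where the ratio for the share of cells was 2.29. Mandible replicate 2 was the lowest sample in both. Its class II-high cells also carried the most transcript of the 6 neutrophil markers, 18020.4 CPM against 2142 to 11932 CPM in the other samples, and it was the only sample where these cells exceeded the other cells of the label in that sum (9549 CPM). The part of this in its chain level was not tested. Cd74 in these cells averaged 17033 ± 498 and 16432 ± 3063 CPM, H2-DMa 556 ± 59.3 and 578 ± 88.7 CPM, and Ciita 314 ± 7.17 and 254 ± 55.6 CPM in the femur and the mandible (SD, n = 3), and the sites overlapped in all 3. Ciita had a UMI in 83.00 ± 6.50% and 83.4 ± 2.98% of them. Since these cells were chosen by their chain UMIs, the levels are descriptions.

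**Figure D3:**
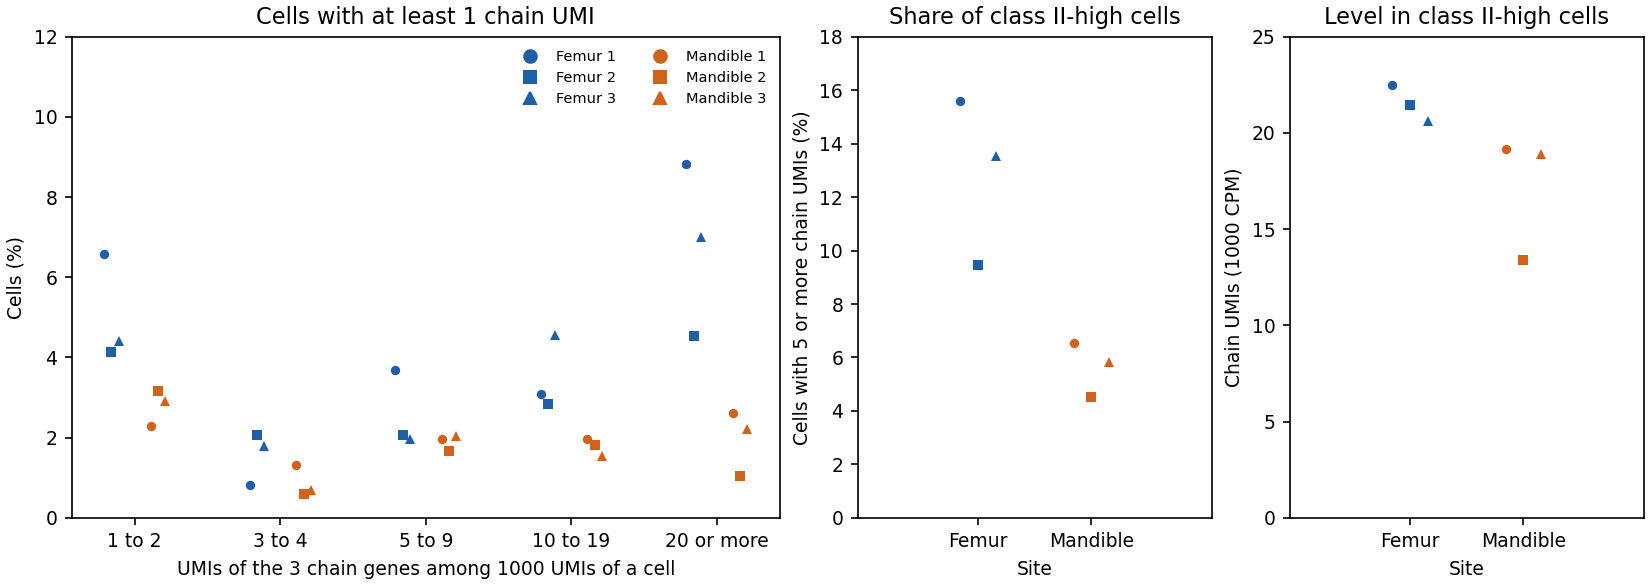
Cluster 5 cells labelled Monocytes after thinning to 1000 UMIs, with 1 point per sample. Left, percent of cells (vertical axis) by number of UMIs of H2-Aa, H2-Ab1 and H2-Eb1 together (horizontal axis), cells without any left out. Middle, percent of class II-high cells by site. Right, chain level within the class II-high cells, in units of 1000 CPM. The femur points lie above the mandible points in the middle and right panels, with the wider relative gap in the share of cells.

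Class II-high cells of the Monocytes label also differed from the other cells of that label in genes that the limit did not use. The 8 conventional DC markers summed to 439.6 to 1185 CPM against 44.2 to 69.1 CPM in the other cells, higher in 6 of 6 samples. Among them Cd209a, a lectin of monocyte-derived and conventional DC, was 201 to 655 CPM against 0.598 to 18.8 CPM, and Batf3, a transcription factor of the DC lineage, was 89.5 to 153 CPM against 13.5 to 28.3 CPM. The 6 macrophage markers summed to 368 to 1817 CPM against 123 to 359 CPM. In the class II-high cells their sum did not overlap between the sites, at 1358, 1464 and 1817 CPM in the femur samples and 1135, 368 and 398 CPM in the mandible samples. The complement gene C1qb was 407, 472 and 743 CPM in the femur samples and 305, 58.4 and 41.3 CPM in the mandible samples, against 3.54 to 16.8 CPM in the other cells. The plasmacytoid DC list, at 313 to 484 CPM against 239 to 302 CPM, and the mature B list, at 14.6 to 42.1 CPM against 2.39 to 7.56 CPM, were also higher in 6 of 6 samples. The mature B list includes the class II partner gene H2-Ob. In cluster 6, the B lineage cluster, the plasmacytoid DC list summed to 995 to 1836 CPM in the femur and 1857 to 2291 CPM in the mandible. The nonclassical monocyte list was higher in 2 of 6 samples, at 321 to 691 CPM against 283 to 714 CPM. Within it Ace was higher in 6 of 6 samples, and Nr4a1 and Spn in 1 of 6. The B lineage list was higher in 4 of 6 samples, at 10.9 to 47.2 CPM against 10.8 to 48.6 CPM, and the pro or pre B list in 0 of 6. The 8 DC markers did not all follow their sum, since Itgae and Xcr1 were higher in only 1 and 2 of 6 samples, nor did the macrophage markers, since Vcam1 was higher in only 1 of 6. The 6 classical monocyte markers were split. Ly6c2, F13a1 and Fn1 were lower in all 6 samples, with Ly6c2 at 608 to 1553 CPM against 1645 to 2437 CPM and the matrix gene Fn1 at 47.3 to 502 CPM against 896 to 1746 CPM. Csf1r, the receptor for M-CSF, was higher in 6 of 6 samples, at 474 to 605 CPM against 261 to 473 CPM. Ms4a6c and Ccr2, the chemokine receptor of monocyte egress, were higher in 5 of 6, with Ccr2 at 956 to 1669 CPM against 1036 to 1456 CPM. Clustering and labels rest on the same counts, so no test was made. The values of the class II-high cells rest on 30 to 83 cells per sample.

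The share of cells with all 4 of the most abundant class II transcripts was also higher in every femur sample. Cells of cluster 5 with a UMI of each of Cd74, H2-Aa, H2-Ab1 and H2-Eb1 among 1000 UMIs were 15.9, 9.50 and 13.4% of the femur samples and 7.50, 5.73 and 5.99% of the mandible samples (exact permutation test, 2-sided, p = 0.1, the smallest possible). Without thinning the shares were 21.9, 14.7 and 20.5% and 11.03, 10.02 and 11.4%. Under the Monocytes label the thinned shares were 12.1% ± 2.83 and 5.08% ± 0.930 (SD, n = 3).

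In the other labels of cluster 5 none of the 7 genes passed. Under the Macrophages label (167, 93 and 51 femur and 72, 46 and 53 mandible cells) all 7 had log2 fold changes below 0, from -0.86 in H2-Eb1 to -0.38 in H2-DMb1 (edgeR adjusted p 0.615 to 0.753). Cd74, H2-Aa, H2-Ab1, H2-Eb1 and Ciita did not overlap, against 4.01% of genes, and 0.0445% of genes were called. The femur sample with the fewest cells, replicate 3, had the highest Cd74, at 7488 CPM. Under the Neutrophils label the log2 fold change was -0.64 in Cd74, -0.99 in H2-Ab1 and -0.06 in H2-DMa (edgeR adjusted p 0.743, 0.214 and 1.00), where 0.0603% of genes were called. Those 5 genes did not overlap there either, against 5.02% of genes. DESeq2 called 3 of the 7, H2-Aa, H2-Ab1 and H2-Eb1, and 0.336% of all genes. Femur replicate 1, the female sample, had a median of 2639 UMIs per cell under this label, against 13922 to 19048.5 in the other samples. The part of that depth in these values was not tested.

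Under the DC label, where class II was highest, the sites overlapped in all 7 genes. Cd74 was 18340.3, 16444 and 17652 CPM in femur replicates 1 to 3 and 24015, 10751 and 13274 CPM in mandible replicates 1 to 3, and H2-Aa was 9345, 8060.3 and 7601 CPM in femur replicates 1 to 3 and 10607, 4824 and 5205 CPM in mandible replicates 1 to 3. Mandible replicate 1 was the highest sample in both and mandible replicate 2 the lowest. The log2 fold changes were -0.17 ± 0.29 (SE), adjusted p = 0.937 in Cd74 and -0.32 ± 0.31 (SE), adjusted p = 0.884 in H2-Aa (edgeR), with 0.0223% of 4484 genes called. These sums rest on 35, 23 and 22 femur and 16, 38 and 40 mandible cells, and the 6 plasmacytoid DC markers ranged from 1406 to 2667 CPM in the femur and 199 to 4291 CPM in the mandible. The 6 B lineage markers were 5.25 to 30.9 CPM in the femur and 160 to 275 CPM in the mandible, and 1 of them was called higher there. The 6 neutrophil markers were 2924 to 12771 CPM in the femur and 1573 to 2083 CPM in the mandible. The part of these markers in the class II levels was not tested. The DC label made up 3.29, 1.61 and 1.52% of cluster 5 in the femur samples and 1.68, 2.93 and 3.42% in the mandible samples (exact permutation test, 2-sided, p = 0.5). The site differences of the Monocytes and the DC labels were compared by a limma test of the difference itself, which called none of the 7 genes (adjusted p 0.999 in each, with 0% of genes called). Single mandible libraries set the size of the difference under the DC label. From the fit without mandible replicate 1 to that without mandible replicate 2, the log2 fold change ran from -0.65 to 0.0720 for Cd74, -0.84 to -0.0932 for H2-Aa, -1.005 to -0.10 for H2-Ab1, -1.18 to -0.16 for H2-Eb1 and -0.97 to -0.40 for Ciita, and only H2-Eb1 without mandible replicate 1 passed. For H2-Aa the difference between the labels was -0.98 ± 0.49 (SE, log2).

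**Figure D4:**
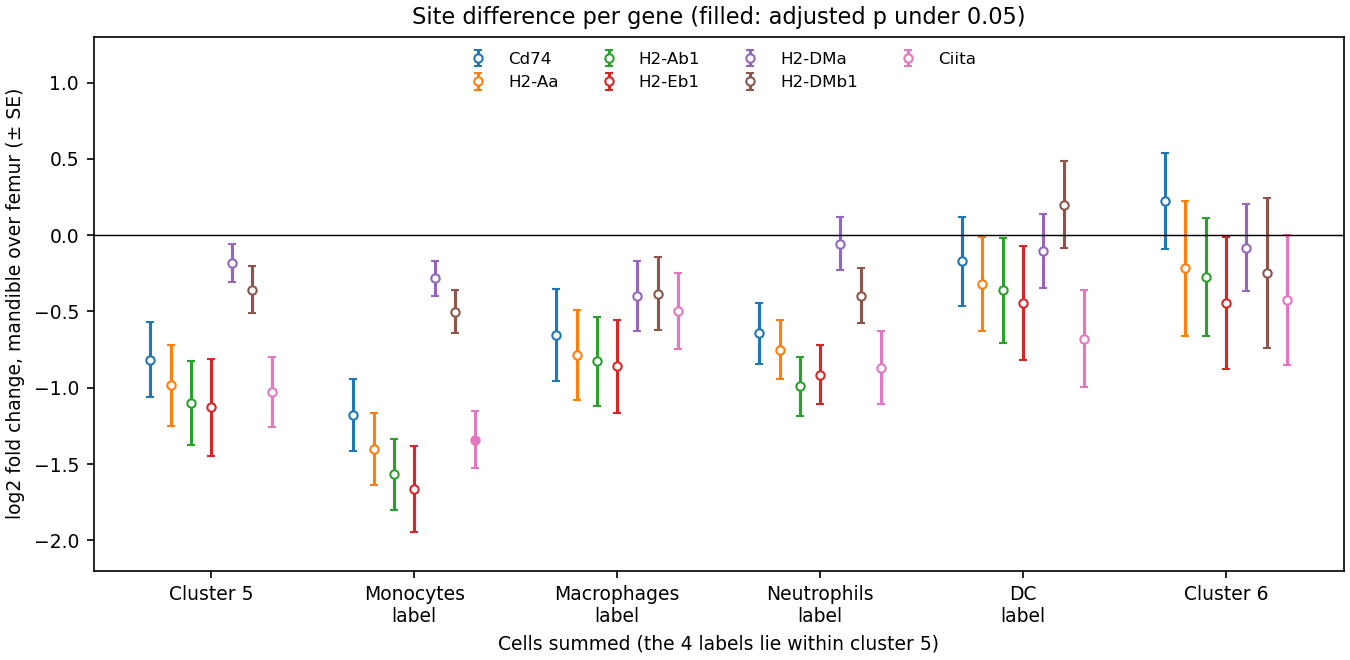
Log2 fold change of each gene, mandible over femur, with its SE (vertical axis) in the summed cells of cluster 5, of 4 ImmGen labels within cluster 5 and of cluster 6 (horizontal axis). Filled points passed an edgeR adjusted p of 0.05. Ciita under the Monocytes label is the only filled point, and the points of the DC label and of cluster 6 lie nearer 0 than those of the Monocytes label.

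In cluster 6, the B lineage cluster, none of the 7 genes differed between the sites by the test. Cd74 was 3418, 2566 and 1238 CPM in femur replicates 1 to 3 and 3432, 1930.5 and 3239 CPM in mandible replicates 1 to 3, and H2-Aa was 1056, 636 and 238 CPM in femur replicates 1 to 3 and 896, 283 and 495 CPM in mandible replicates 1 to 3. Femur replicate 3 was the lowest sample and the sites overlapped. Without femur replicate 3 Cd74 had a log2 fold change of -0.07, and without femur replicate 1 H2-Aa had one of 0.28, each of the opposite sign to that with all samples. The log2 fold changes were 0.23 ± 0.32 (SE), adjusted p = 1.00 in Cd74, -0.22 ± 0.44 (SE), adjusted p = 1.00 in H2-Aa and -0.43 ± 0.43 (SE), adjusted p = 1.00 in Ciita (edgeR). None of the 7 genes passed, in edgeR or in DESeq2, where 0% of 8161 genes were called and 330 had an unadjusted p under 0.05, none of the 7 among them. Cells with all 4 transcripts among 1000 UMIs were 25.6, 16.5 and 5% and 25, 8.38 and 8.56% (exact permutation test, 2-sided, p = 0.9). Cluster 6 held 39, 158 and 60 femur and 100, 394 and 258 mandible cells, and its 6 neutrophil markers summed to 16388 to 75467 CPM in the femur and 30454 to 45189.7 CPM in the mandible, with femur replicate 3 at 75467 CPM. Their part in the low class II of that sample was not tested.

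The site difference of cluster 5 was set against that of cluster 6 per sample with limma. Cd74 had the largest difference, -1.13 ± 0.32 (SE, log2), from -0.85 in cluster 5 and 0.28 in cluster 6, with limma adjusted p = 0.806. None of the 7 passed, and 0% of genes were called. Summed over all cells of a sample, the log2 fold changes were -0.02 ± 0.20 (SE), adjusted p = 0.990 for Cd74 and -0.49 ± 0.24 (SE), adjusted p = 0.596 for H2-Eb1 (edgeR), none of the 7 genes passed, and 0% of genes were called. The makeup of the samples differed as well. Cluster 5 was 10.4, 12.3 and 6.33% of the kept cells of the femur samples and 11.1, 14.8 and 15.1% of those of the mandible samples, and cluster 6 was 0.380, 1.36 and 0.263% and 1.16, 4.502 and 3.32%, so the sites overlapped in both, while cells labelled Monocytes were a larger share of every mandible sample. The part of these shares in the whole-sample values was not tested. In clusters 0 to 4, 7 and 8 none of the members that passed the filter on low counts was called, where 0 to 0.0842% of genes were. Of the 7, 6 passed that filter in clusters 0 and 4, 5 in clusters 1 to 3, 1 in cluster 7 and 0 in cluster 8.

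Genes that act beside the 7 were followed in 6 lists. No gene of any list passed the edgeR test in cluster 5, under the Monocytes label or in cluster 6. Of the partners, H2-Oa and H2-Ob encode the modulator of H2-DM that is typical of B cells and some DC. H2-Ob was 191, 166 and 84.8 CPM in the femur samples and 172, 95.2 and 130.4 CPM in the mandible samples in cluster 6, but 7.39, 5.87 and 3.63 CPM in the femur samples and 5.06, 3.14 and 5.56 CPM in the mandible samples in cluster 5. H2-Oa had 46.6 and 49.5 CPM as site means in cluster 6 and 5.41 and 6.30 CPM in cluster 5, and H2-DMb2 had 99.1 and 85.8 against 4.43 and 4.74 CPM, in the femur and the mandible in turn. All samples of cluster 6 were above all samples of cluster 5 in these 3 genes.

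The list of transcription factors that act at class II promoters or on Ciita had 14 genes, all of which passed the filter in cluster 5. Their median log2 fold change there was -0.04, and it was 0.01 over the 13 tested under the Monocytes label. Under that label 2 genes of the list lay lower and 2 higher in every mandible sample than in any femur sample. Of all genes tested, 7.18% and 10.6% did so. Among the most abundant in cluster 5 were Spi1, the PU.1 gene, and Irf8, a factor of monocyte and DC development. Spi1 was 512, 553 and 609 CPM in the femur samples and 502, 498 and 569.7 CPM in the mandible samples under the Monocytes label. Irf8 was 237, 269 and 200.3 CPM in the femur samples and 271, 249 and 322 CPM in the mandible samples under that label. The sites overlapped in both. Of the RFX subunits that bind the X box, Rfx5 and Rfxap overlapped between sites under that label, while Rfxank was 9.15, 7.86 and 9.31 CPM in the femur samples and 9.91, 11.8 and 12.3 CPM in the mandible samples, with no overlap, higher in the mandible by 0.35 on the log2 scale (edgeR adjusted p = 0.453), as were 10.6% of all genes tested without overlap. In cluster 6 the most abundant were Pax5, Irf4 and Spi1, with Pax5, the B lineage factor, at 1077, 882 and 582 CPM in the femur samples and 910.1, 759.8 and 1159 CPM in the mandible samples.

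The 11 proteases and other processing genes had a median log2 fold change of -0.13 in cluster 5 and -0.07 under the Monocytes label. Ctss, the cathepsin that cuts the invariant chain, was 1816, 1547 and 1894 CPM in the femur samples and 1452, 1178 and 1199 CPM in the mandible samples under that label, where every femur sample was above every mandible sample. Its log2 fold change was -0.48 ± 0.15 (SE), with an adjusted p of 0.193 by edgeR and 0.0446 by DESeq2. Ctsb, a cathepsin of lysosomal degradation, and Ifi30, a thiol reductase of antigen unfolding, had log2 fold changes of -0.24 and 0.14 and overlapped.

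Of the 10 genes of surface turnover and costimulation, the most abundant in cluster 5 were Cd44, March1, which encodes the ubiquitin ligase of class II, and Cd86. Their log2 fold changes under the Monocytes label were 0.01, -0.30 and 0.35, with overlap between the sites. Cd40, a costimulatory receptor, was 36.6, 28.4 and 25.3 CPM in the femur samples and 19.7, 15.5 and 19.4 CPM in the mandible samples, with no overlap and an adjusted p of 0.109 by edgeR and 0.0268 by DESeq2. The 9 genes of interferon gamma input had a median log2 fold change of -0.24 under that label. Of the 9, 8 lay below 0 and 1 was lower without overlap, against 7.18% of all genes. Of the most abundant, Ifngr1, a chain of the interferon gamma receptor, was 444, 492 and 406 CPM in the femur samples and 474, 299 and 363 CPM in the mandible samples and Jak1, its kinase, 240.4, 222 and 200.3 CPM in the femur samples and 222, 194 and 197 CPM in the mandible samples, and both overlapped.

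MHC class I, which presents peptides from the cytosol to CD8+ T cells, was followed for comparison in 11 genes. All 11 had log2 fold changes below 0 under the Monocytes label, with a median of -0.40, and 4 did not overlap, against 7.18% of all genes. B2m, which encodes the light chain, was 3469, 3073 and 2324 CPM in the femur samples and 2796, 1819.6 and 1633 CPM in the mandible samples, a difference of -0.52 on the log2 scale that missed the threshold (edgeR adjusted p = 0.352). The heavy chain genes H2-D1 and H2-K1 had log2 fold changes of -0.35 and -0.40, and the sites overlapped in these 3 genes. H2-Q7, a class Ib gene with near copies, was 66.1, 59.4 and 39.3 CPM in the femur samples and 31.2, 18.9 and 25.7 CPM in the mandible samples, with an adjusted p of 0.0983 by edgeR and 5.16e-04 by DESeq2. In cluster 6 the class I median was 0.02. The Monocytes label was not alone in this, since all 11 lay below 0 in cluster 5 as a whole, with a median of -0.36. Under the DC label all 9 class I genes tested lay below 0, with a median of -0.34. The list summed there to 5802 to 7676 CPM in the femur and 4325 to 5215 CPM in the mandible.

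The genes whose levels followed those of the 7 most closely were found by Pearson's r of log2(CPM + 1) with the summed 7, across 54 sums (9 clusters in 6 samples). They were Txndc5, Cd40, Ifi203, Cd83, Ptprs, Scpep1, Arl5c and Cd180, with r from 0.958 to 0.966. Cd40 and Cd83 are costimulatory and maturation genes of antigen presenting cells, and Cd180 encodes a receptor of B cells and myeloid cells. Among the members themselves r was lowest in H2-DMb1 (0.890) and H2-DMa (0.927). Across the 25 sums of ImmGen labels within cluster 5 with at least 20 cells, the closest genes were Slamf7, Slamf9, Batf3, Cyth4, Clec10a, Slamf8, Rtn1 and Ehf (r 0.922 to 0.977), with Batf3 and Clec10a known from DC, and H2-DMa had an r of 0.799. Sums of a sample share its library and depth, so these values describe likeness only.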

How the data were processed

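The authors deposited a raw matrix per sample of counts (UMIs), made with Cell Ranger on mm10, with version 7.0.1 in the submitters' processing notes and another in the matrix header. Whether strand was used is not given in the sources used here. The metadata table deposited by the authors gave counts of UMIs, the mitochondrial percent, cluster, phase and ImmGen labels of the cells they kept. Its column names point to SCT-normalised and integrated values behind the clusters, and the submitters' notes name Seurat. The deposited marker table holds the authors' own comparisons and was not used.

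The 7 genes and the gene lists were chosen with earlier results of these data known. UMIs were summed per sample and cluster or label and fitted with edgeR 4.0.16 (quasi-likelihood, TMM, default filter on low counts, labels with 10 or more cells in every sample), with Benjamini-Hochberg adjustment over all genes. The SE given for edgeR is the absolute log2 fold change divided by the square root of the F statistic. It restates the test and is not a separate estimate. DESeq2 1.42.0 and limma 3.58.1 (log2 CPM, prior count 2) served as alternative and for differences between site effects. Cells were thinned at random to 1000 UMIs for shares, and 88 shallower cells were left out. Doublets were not called. Shares were compared by 2-sided exact permutation over 20 assignments. Genes of the lists were named where a fit called them or, in clusters 5 and 6, as the 3 most abundant of a list, and a few others where a count turned on them after their values had been seen. A single gene among those the rule names is not reported here. Scripts were tested on simulated data.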

Additional observations from a re-analysis of the deposited data

Results flagged for a closer look

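Class II transcripts were also present in barcodes that the authors had not kept, which no comparison above uses. In these barcodes Cd74 was 340.2, 150.2 and 226 CPM in femur replicates 1 to 3 and 183, 156 and 118 CPM in mandible replicates 1 to 3. Each value is above the Cd74 level of clusters 1 to 3 of the same sample (8.66 to 15.7 CPM), which is why it is listed here. Against all kept cells of the same sample (276, 303 and 160 CPM in the femur and 226, 204 and 309 CPM in the mandible) it was lower in 4 of 6 samples and higher in femur replicates 1 and 3. The sums rest on 322 to 2332 barcodes per sample, with medians of 394 to 528 genes, and on 387 to 2031 Cd74 UMIs. A minority of deep barcodes held much of the total UMIs there, with means of 2560.4 to 23944 UMIs per barcode against medians of 727 to 1272, and 38.6 to 83.2% of all UMIs in the deepest 10% of barcodes. Without those, Cd74 was 144 to 817 CPM, higher in each sample than with them (chosen after seeing the data). Femur replicate 1 had the most barcodes not kept and the highest value. H2-DMa was 21.4 to 58.2 CPM there. Why the levels lie above those of clusters 1 to 3 was not tested.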

How the results depend on the processing

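No direction of a member changed in cluster 5 or under the Monocytes and Macrophages labels in any alternative. The number of the 7 genes called in cluster 5 was 0, but 4 by DESeq2 and 1 with only cells labelled Monocytes. Over the 4 labels of cluster 5 it was 1, but 8 by DESeq2, 8 without the filter on low counts, 5 with the replicate block of title numbers (Cd74, H2-Aa, H2-Ab1, H2-Eb1 and Ciita under the Monocytes label), 6 with the replicate block of library numbers in 4 male libraries (these and H2-DMb1; 814 of 11501 genes were called there, and 83 of 11364 with the title numbers), 0 without the 5 percent deepest cells and 0 to 6 when 1 replicate was left out, with 6 without mandible replicate 1 and 0 without any of the others. Under the Monocytes label it was 1, but 4 in G1 cells and 2 in cells labelled so by both references, both chosen after seeing the data. Over clusters 0 to 4, 7 and 8 it was 0, but 6 without the filter (in clusters 7 and 8, where 118 of 17321 and 44 of 14169 genes were called) and 4 with the replicate block of library numbers (in clusters 0 and 1, where 573 of 12461 and 1587 of 11257 genes were called). The cause of these changes was not tested. In cluster 6, over all cells and in the comparison of clusters 5 and 6 it was 0 in every alternative.

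The share of cluster 6 cells with all 4 transcripts (main difference -1.72 percentage points) ranged from -7.23 to 3.25 when 1 replicate was left out. The DC share of cluster 5, higher by 0.533 points in the mandible, was lower there by the MouseRNA label, at -0.442 points (chosen after seeing the data). In cluster 6, log2 fold changes with 1 replicate left out spanned -0.0651 to 0.53 (Cd74), -0.76 to 0.28 (H2-Aa), -0.64 to 0.21 (H2-Ab1), -0.96 to 0.0475 (H2-Eb1), -0.32 to 0.14 (H2-DMa) and -0.64 to 0.38 (H2-DMb1), and with the replicate block of library numbers they were 0.36 (H2-Aa), 0.36 (H2-Ab1), 0.19 (H2-Eb1), 0.0520 (H2-DMa) and 0.79 (H2-DMb1). Under the DC label the spans were -0.65 to 0.0720 (Cd74), -0.28 to 0.00715 (H2-DMa, 0.0457 with that block) and -0.12 to 0.42 (H2-DMb1), and under the Neutrophils label -0.21 to 0.0766 (H2-DMa).

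Samples with the same title number did not deviate together under the Monocytes label (r across genes -0.28 to 0.20), and the 2 pairs with a shared library number had r of 0.34 and 0.39, but the labels do not say what that number marks. Finer ImmGen labels were not run. With 3 samples per site no exact permutation test can fall below 0.1, and the DC label rests on 16 to 40 cells per sample.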

Other observations

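Under the Monocytes label 11 genes passed the edgeR test between the sites, of which Ciita is one. Of the other 10, 9 were lower in the mandible. Itgax, which encodes the integrin CD11c of DC and tissue macrophages, was 29.3, 17.99 and 20.7 CPM in the femur samples and 7.31, 4.35 and 4.04 CPM in the mandible samples, a log2 fold change of -2.12. C1qc, a complement gene of macrophages, had a log2 fold change of -2.78, and Ms4a7, a membrane gene of macrophages, was 56.5, 34.6 and 48.3 CPM in the femur samples and 14.9, 7.25 and 6.63 CPM in the mandible samples. Tmem176a, a gene of DC and macrophage endosomes, was 148, 107 and 129 CPM in the femur samples and 65.3, 56.6 and 60.3 CPM in the mandible samples. Calhm6, Fcrl5, Clec2d, Gm13684 and Cd81 fell as well, with log2 fold changes of -1.25, -3.48, -1.04, -1.63 and -1.30. The sites did not overlap in any of these genes, and edgeR adjusted p-values were 0.0359 to 0.0451. These genes were chosen for passing the test, and the number of calls rested on single libraries. It was 0 without femur replicate 1 or femur replicate 2, 1 without femur replicate 3 or mandible replicate 2, 3 without mandible replicate 3 and 578 without mandible replicate 1. The only gene that rose was Amelx, which encodes the enamel protein amelogenin, at 0.203, 0.380 and 0.172 CPM in the femur samples and 17.1, 9.35 and 10.8 CPM in the mandible samples.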
